A study of Mus musculus with 13 samples.

Results

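The comparison described here set the gastrocnemius muscle of obese mice treated with semaglutide alone against that of obese mice given vehicle. Its members were the 5 semaglutide libraries (mice 13 to 17) and the 5 vehicle libraries (mice 1 to 5), chosen by their treatment labels, out of 13 libraries in the series. Of the 21868 genes in the table of normalized counts, the 12303 with a mean of at least 10 over the 13 mice were tested. All of these mice were males, C57BL/6 in the labels and C57BL/6N in the study's account of its sequencing data, that arrived at 7 weeks of age, ate a diet with 60% of its energy as fat for 15 to 17 weeks, and were moved to standard chow before treatment. Vehicle was phosphate-buffered saline and semaglutide was injected into the peritoneum at 30 nM/kg per day, in each case for 3 weeks and with a placebo for the ketone ester. The controls were therefore obese mice that had also changed diet, no lean muscle was part of the comparison, and the data hold males only. The labels give the same batch for every library.

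Semaglutide is a long-acting agonist of the glucagon-like peptide-1 (GLP-1) receptor that lowers appetite and body weight. Skeletal muscle is a mixture of long multinucleated fibres, which carry out contraction and most of the energy metabolism, and of vascular, connective tissue, nerve and immune cells between them. Its mass follows the balance of protein synthesis, which runs through insulin and insulin-like growth factor signalling to mTORC1 and the ribosome, and of protein breakdown through the proteasome and the lysosome. Its oxidative capacity follows the number and composition of its mitochondria, whose respiratory complexes are built from subunits of both the nuclear and the mitochondrial genome.

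With limma on log2(normalized count + 1), 1459 genes (11.9% of those tested) were higher and 1625 (13.2%) were lower in semaglutide-treated muscle at an adjusted p under 0.05. A gene past that threshold is referred to as called, and log2 differences are semaglutide minus vehicle. The lower genes held more of the large differences, since 361 of them were lower by 1 or more on the log2 scale and 132 genes were higher by that much. In 888 genes (7.22% of those tested) every semaglutide mouse was above every vehicle mouse, and in 916 genes (7.45%) every one was below. Mouse 13 was the semaglutide mouse nearest to the vehicle mean in 877 of the 1459 genes called higher and in 1019 of the 1625 called lower, and without it 2130 genes were higher and 2320 lower. Without mouse 17, by contrast, 945 were higher and 1120 lower. The direction of the balance also depended on the scale. Normalized totals were lower in the semaglutide libraries (14876576 to 18100930) than in the vehicle libraries (18962089 to 19866025). When all libraries were set to the same total, which raised the median log2 difference of all genes from -0.003 to 0.17, 3262 genes were higher and 929 lower. Higher genes then made up 77.8% of the calls, against 47.3% on the deposited scale.

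Depth was similar between the groups, at 15621189 to 17101549 reads on genes in vehicle libraries and 15319471 to 23498162 in semaglutide libraries. The 6 markers of skeletal muscle fibres included creatine kinase M (Ckm) and skeletal actin (Acta1). They summed to 2217584 to 2719678 normalized counts in vehicle libraries and to 1325577 to 2491597 in semaglutide libraries. Of these markers 3 were called lower and 1 higher. Acta1 was among the lower ones (-0.46, adjusted p = 0.0417), a call kept in 2 of the 10 fits without 1 mouse and lost with equal totals. Glp1r, the receptor of the drug, had 0 reads in all 10 libraries, which allows at most 1.96e-05% of the reads of a library by counting error alone. Transcripts of the hormones Fgf21 and Gdf15 stayed below the minimum for testing, with means of 0.569 and 4.04 normalized counts in semaglutide muscle and 0.247 and 1.43 in vehicle muscle.

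**Figure D1:**
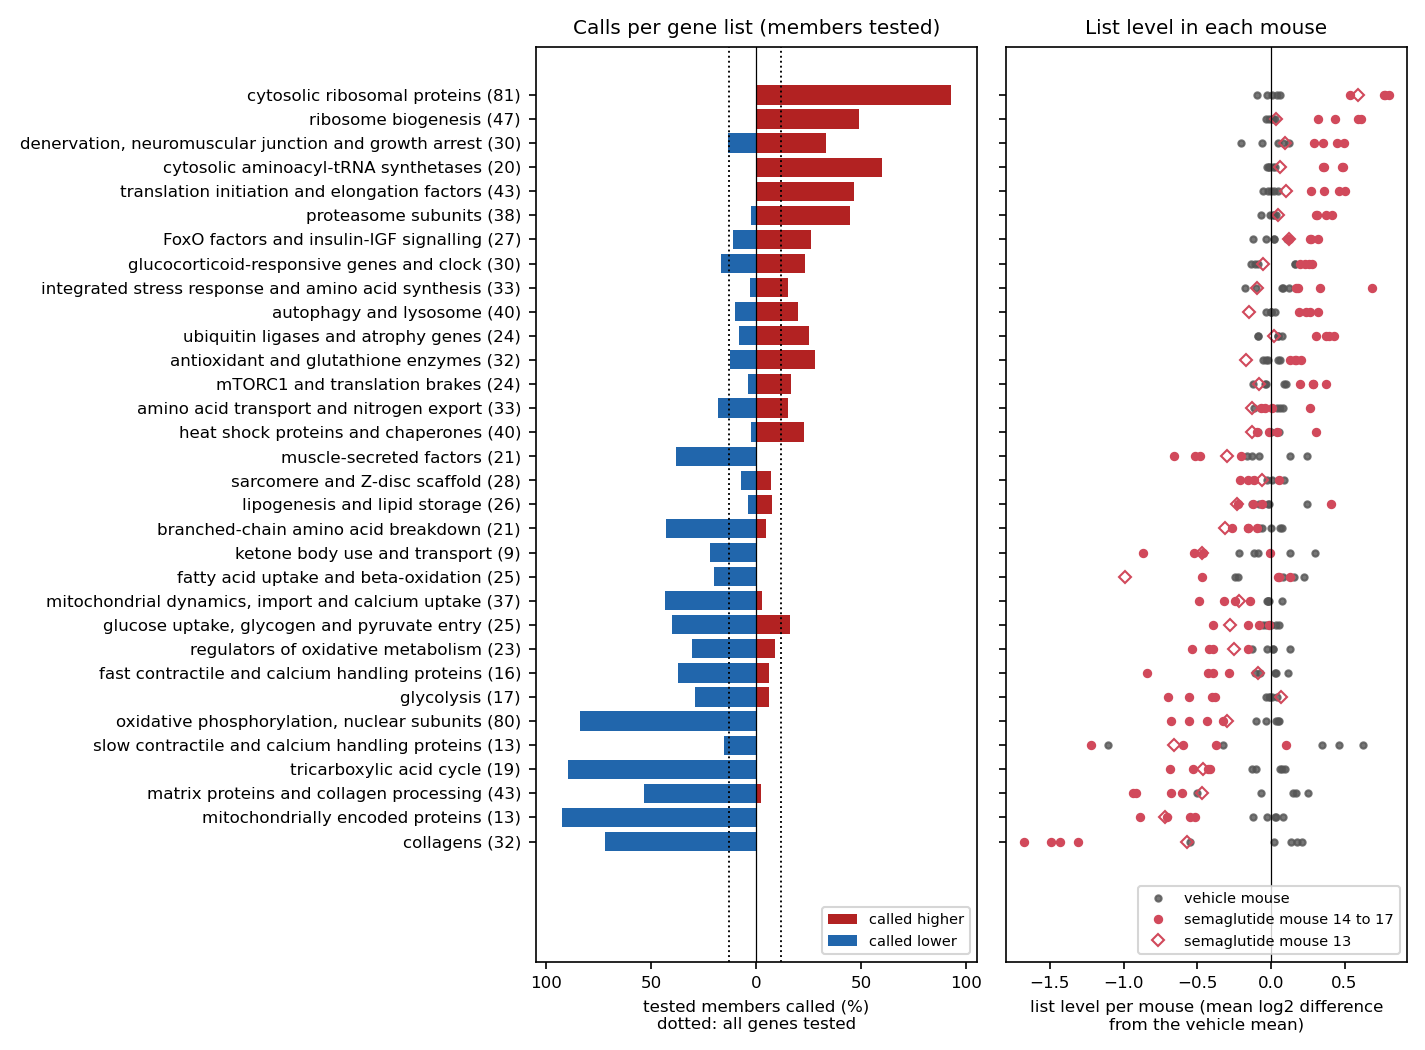
Left, share of the tested members of each of the 32 gene lists that limma called higher (red) or lower (blue) under semaglutide, with dotted lines at the shares over all genes tested (11.9% and 13.2%). Right, mean log2 difference of each list from the vehicle mean in each mouse. Ribosomal protein genes had 75 of 81 members higher, collagens and respiratory chain subunits were mostly lower, and mouse 13 (open diamonds) lay near the vehicle mice in most of the lists that were higher.

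The 12 largest increases among called genes with a mean of at least 100 and no overlap between the groups had log2 differences of 1.62 to 3.15. Sln (chromosome 9, 53850164 to 53854560, GRCm38) encodes sarcolipin, a small membrane protein that uncouples the calcium pump of the sarcoplasmic reticulum. Its normalized counts were 42.3, 25.3, 26, 34.4 and 47.7 in vehicle mice 1 to 5 and 263, 376, 168, 435 and 402 in semaglutide mice 13 to 17. Every semaglutide mouse was thus well above the vehicle range, and the log2 difference was 3.15 ± 0.47 (SE; adjusted p = 0.000937). Eif4ebp1 (chromosome 8, 27260329 to 27276674) encodes 4E-BP1, the repressor of cap-dependent translation that mTORC1 inactivates. Its counts were 448 to 621 in the vehicle mice, 772 in mouse 13 and 3467 to 5033 in mice 14 to 17. The groups did not overlap, but mouse 13 was much closer to vehicle than to its own group (log2 difference 2.48 ± 0.42, adjusted p = 0.00186, and 2.97 without mouse 13). Slc7a2, a transporter of cationic amino acids, was at 1288 ± 325 (SD, n = 5) in vehicle and 4736 ± 2009.6 in semaglutide muscle (log2 difference 1.78). Acsl6, a long-chain acyl-CoA synthetase, was at 541 ± 52.9 and 1884 ± 718 (1.71). Fbp2, the muscle fructose-1,6-bisphosphatase, was at 963 ± 228 and 3172 ± 1061 (1.68). Ppp1r1a, an inhibitor of protein phosphatase 1, rose from 548 ± 144 to 2003 ± 431 (1.88), and Vegfd, a lymphatic growth factor, from 79.1 ± 14.7 to 268 ± 115 (1.65). The metal-binding metallothioneins Mt1 and Mt2 rose together, with log2 differences of 1.62 and 1.67. Tmem100, Ctxn3 and Rhpn2 completed the 12 largest increases, at 1.68, 1.64 and 1.63.

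Among the 12 largest decreases, mouse 13 was in every gene the semaglutide mouse nearest to vehicle. Ostn (chromosome 16, 27307489 to 27351212) encodes musclin, a secreted peptide of muscle. Its counts were 1838, 1619, 3248, 3121 and 1568 in the vehicle mice, 1047 in mouse 13 and 109, 229.9, 50.5 and 137 in mice 14 to 17. All 5 treated mice were below all vehicle mice, by a log2 difference of -3.59 ± 0.61 (adjusted p = 0.00203). Nrep, a neuronal regeneration-related gene, was at 1096 to 1414 in vehicle, at 633 in mouse 13 and at 45.5 to 63.1 in the others (-3.88 ± 0.61). Kcng4, a modifier subunit of voltage-gated potassium channels, and Dupd1, a dual-specificity phosphatase gene, were lower, with log2 differences of -3.70 and -3.67. Nmrk2, the muscle kinase that turns nicotinamide riboside into an NAD precursor, was at 2775 ± 747 in vehicle and 506 ± 651 in semaglutide muscle (-3.15). Gdap1, a protein of the outer mitochondrial membrane, fell from 613 ± 134 to 106 ± 112 (-3.00). Grb14, an adaptor that restrains the insulin receptor, fell from 396 ± 108 to 74.2 ± 25.8 (-2.42 ± 0.27, adjusted p = 0.000185), with the highest treated mouse at 109 and the lowest vehicle mouse at 278. Amd1 and Amd2, near-identical copies of the polyamine enzyme adenosylmethionine decarboxylase whose reads may be shared, fell by 2.60 and 2.57. The fibrillar collagens Col3a1, Col1a1 and Col1a2 made up the rest, at -3.14, -3.02 and -2.88. In bulk tissue, fewer cells of a type and less RNA per cell cannot be told apart.

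**Figure D2:**
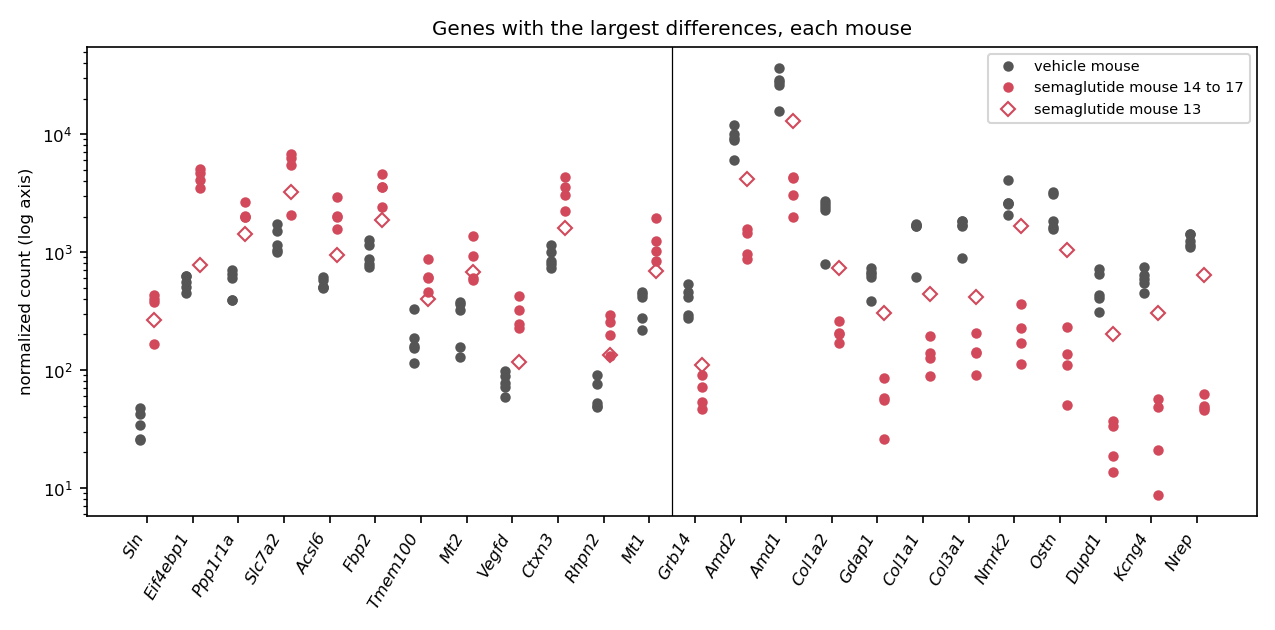
Normalized counts (log axis) of the 12 genes with the largest increases (left of the line) and the 12 with the largest decreases among called genes with a mean of at least 100, in each vehicle mouse (grey) and semaglutide mouse (red, with mouse 13 as an open diamond). The groups do not overlap in any of the 24 genes by the rule that chose them, and mouse 13 is nearest to vehicle in 8 of the 12 increases and 12 of the 12 decreases.

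Genes of mitochondrial energy production were lower at most steps. The list counts below stand beside 11.9% called higher and 13.2% called lower over all genes tested. Where a list is said below to have 0 members called in a direction by limma, at most 1 had an unadjusted p under 0.05 in that direction, and edgeR and DESeq2 each called at most 1. Of 80 nuclear-encoded respiratory chain subunits tested, 67 were called lower and 0 higher, with a median log2 difference of -0.46. The lower members were spread over complex I (30 of 36 lower, median -0.45), complex II (4 of 4, -0.55), complex III (9 of 9, -0.58), complex IV (11 of 14, -0.50) and ATP synthase (12 of 16, -0.40). The medians of the complexes thus lay between -0.58 and -0.40, and Cox7a1 had the lowest value of the 80 subunits. With equal totals 46 of the 80 were called lower and 1 higher. Cox7a1 (chromosome 7, 30184144 to 30186078), the heart and muscle isoform of a complex IV subunit, was at 1739.7 to 2177 in vehicle and 513 to 738 in semaglutide muscle (-1.64 ± 0.13). Its fellow muscle isoform Cox6a2 was at a log2 difference of 0.01 and was not called. Ndufs4, an accessory subunit of complex I, fell from 2285 ± 98.7 to 1489 ± 144 (-0.62). The list level, the mean log2 difference of its members from the vehicle mean, was -0.30, -0.33, -0.43, -0.68 and -0.55 in mice 13 to 17 and -0.10 to 0.05 in the vehicle mice. All 5 treated mice, mouse 13 included, were therefore below all vehicle mice.

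Transcripts of the mitochondrial genome were also lower. Of 13 protein genes, 12 were called lower (median -0.72), and the remaining member, mt-Nd3, ranged from 4255 to 17456 in semaglutide and from 4513 to 28947 in vehicle muscle. The complex I subunit mt-Nd4 was at 481901 ± 17766 and 273256 ± 28645 (-0.82 ± 0.08), and mt-Cytb of complex III at 447837 ± 26895 and 255926 ± 22649 (-0.81). The 13 genes together took 18.5% ± 1.12 of normalized counts in vehicle and 12.5% ± 0.835 in semaglutide muscle, a difference of -6.07 percentage points. Their share was 17.2% to 19.9% in the vehicle mice and 11.4% to 13.7% in the semaglutide mice. No p is given for this share, because the list was chosen with earlier results of these data known. Since poly(A) selection was used, these are polyadenylated transcripts.

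The tricarboxylic acid cycle, which feeds the respiratory chain, had 17 of 19 members lower and 0 higher (median -0.49). Idh3a, the catalytic subunit of isocitrate dehydrogenase, fell from 9329 ± 351 to 5498 ± 995 (-0.78), and Sucla2, a succinyl-CoA synthetase subunit, from 7532 ± 331 to 4517 ± 482 (-0.74). In the list of mitochondrial dynamics, import and calcium uptake, 16 of 37 members were lower and 1 was higher (median -0.27), or 8 and 2 with equal totals. Ckmt2, the mitochondrial creatine kinase of striated muscle, fell from 17061 ± 3447 to 5496 ± 1609.8 (-1.66). Vdac1, the main channel of the outer membrane, fell from 20949.8 ± 363 to 13117 ± 1295 (-0.68), and Mtfp1, a fission factor, from 689.8 ± 48.3 to 369.6 ± 91.7 (-0.93). The fusion genes Opa1, Mfn1 and Mfn2 were also called lower (-0.51, -0.49 and -0.31, the last not with equal totals), whereas the fission receptors Fis1 and Mff were at -0.10 each and not called.

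Of regulators of oxidative metabolism, 7 of 23 were lower and 2 higher (30.4% and 8.7%, beside 13.2% and 11.9% over all genes). With equal totals 5 were lower and 5 higher, on a scale where 929 of all genes were lower and 3262 higher. Esrra, the nuclear receptor that drives many respiratory genes, was at 1596 to 1800.0 in vehicle, at 1369 and 1341 in mice 13 and 14 and at 798 to 800.4 in mice 15 to 17 (-0.78 ± 0.17). Sirt3, the mitochondrial deacetylase, fell from 261 ± 37.9 to 134 ± 41.3 (-0.99) and Vegfb from 1855 ± 153 to 1206 ± 121 (-0.62). Ppargc1a, the coactivator PGC-1alpha, was at 2342 ± 726 and 1972 ± 916 and was not called (-0.34 ± 0.35), nor were Ppargc1b (0.20, called with equal totals at 0.37) and Esrrg (-0.77 ± 0.29, adjusted p = 0.0674). Nrf1, a transcription factor of nuclear mitochondrial genes, rose from 194 ± 24.8 to 305 ± 34.4 (0.65). Tfam, which packages mitochondrial DNA, was slightly lower (-0.27, adjusted p = 0.0324). That call was lost without mouse 14, 16 or 17 or vehicle mouse 1, 3 or 4, and with equal totals (-0.10, adjusted p = 0.369). The list had 4 lower members without mouse 16 or 17 or vehicle mouse 4, and 4 higher without mouse 13.

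Promoter windows were read for genes that moved with these lists, from 250 bases before to 50 bases after the start that RefSeq gives on GRCm38.p6. Windows matched 9653 of the 12303 genes tested. The letters TNAAGGTCA, the extended site that estrogen-related receptors such as Esrra bind, were searched on both strands. They were in 0.849% of all windows, in 1.2% of those of genes called lower and in 1.37% of those of genes called higher. By list, they were in 3 of 66 windows (4.55%) of nuclear respiratory chain genes and 1 of 16 (6.25%) of tricarboxylic acid cycle genes. Among lists with 0 members called lower, they were in 2 of 41 windows (4.88%) of ribosome biogenesis genes. They were also in 2 of 60 (3.33%) of cytosolic ribosomal protein genes and in 0 of 12 of aminoacyl-tRNA synthetase genes. Of the 3 respiratory chain genes, Atp5g3, a subunit c gene of ATP synthase, fell from 6937 ± 495 to 4203 ± 417 (-0.73), and Sdhd, an anchor subunit of complex II, from 3382 ± 277 to 2379 ± 469 (-0.53). The third, Ndufb4, a subunit of complex I, was at 479 ± 56.5 and 361 ± 68.2 (-0.42), a call that was lost in 9 of the 10 fits without a mouse and with equal totals. The windows of Atp5g3 and Sdhd are shown, 5′ to 3′ on the gene's strand, because they hold these letters and kept their calls with equal totals, in a list of which 67 of 80 members were called lower. Capitals mark the match, which reads on the opposite strand in both, and these genes were chosen after their values were seen.
Atp5g3 (chr2:73911277-73911576, minus strand): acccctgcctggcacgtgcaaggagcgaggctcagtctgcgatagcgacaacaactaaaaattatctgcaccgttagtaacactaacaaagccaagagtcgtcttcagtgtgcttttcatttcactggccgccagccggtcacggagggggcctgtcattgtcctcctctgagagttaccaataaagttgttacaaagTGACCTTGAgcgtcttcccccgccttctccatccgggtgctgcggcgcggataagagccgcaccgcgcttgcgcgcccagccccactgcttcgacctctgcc
Sdhd (chr9:50603800-50604099, minus strand): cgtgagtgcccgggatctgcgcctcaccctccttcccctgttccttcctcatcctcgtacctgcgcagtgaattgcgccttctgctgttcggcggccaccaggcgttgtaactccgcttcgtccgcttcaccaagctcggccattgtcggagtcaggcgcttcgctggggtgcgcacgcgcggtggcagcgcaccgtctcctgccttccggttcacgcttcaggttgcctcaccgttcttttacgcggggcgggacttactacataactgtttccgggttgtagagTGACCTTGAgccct

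In fatty acid uptake and beta-oxidation, 5 of 25 members were lower and 0 higher (median -0.24), or 3 and 1 with equal totals. The 20% lower stand beside 13.2% over all genes. The 5 were enzymes of the mitochondrial pathway (Acads, Hadh, Acadm, Acaa2 and Decr1), of which Acaa2 and Decr1 lost the call with equal totals. Acads, the short-chain acyl-CoA dehydrogenase, was at 1156 to 1516 in vehicle and 699 to 763 in semaglutide muscle (-0.91 ± 0.10), and Hadh and Acadm fell by 0.67 and 0.57 on the log2 scale. Cpt1b, the muscle carnitine palmitoyltransferase that admits fatty acids to the mitochondrion, was at 6491 ± 663 and 5971 ± 1337 (-0.15) and was not called. The treated mice were split in this list, with a level of -0.99 in mouse 13, -0.47 in mouse 14 and 0.05 to 0.13 in mice 15 to 17. Without mouse 13, 4 members were called higher.

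The same split showed in genes that fatty acids are known to induce. Pdk4, the kinase that closes pyruvate dehydrogenase, was at 14647 to 21344 in vehicle mice, at 978 and 1273 in mice 13 and 14 and at 34233, 28847 and 24557 in mice 15 to 17. Mice 13 and 14 were below and mice 15 to 17 above every vehicle mouse, so the group means were nearly equal (17716 and 17978) and the gene was not called (adjusted p = 0.401). Angptl4, an inhibitor of lipoprotein lipase, followed with 22.2 and 15.8 in mice 13 and 14 and 313 to 626 in mice 15 to 17, beside 171 to 390.0 in vehicle. Ucp3, a mitochondrial uncoupling protein, was at 4428 to 5854 in vehicle, at 1072 and 429 in mice 13 and 14 and at 2666 to 4256 in mice 15 to 17. All treated mice were below the vehicle range for Ucp3, yet the spread left it just short of the threshold (-1.48 ± 0.52, adjusted p = 0.0536).

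Of 9 genes of ketone body use and transport, 2 were lower and 0 higher (22.2% lower, beside 13.2% over all genes). Oxct1 (chromosome 15, 4026383 to 4155344), the enzyme that activates acetoacetate outside the liver, was at 5549 to 7786 in vehicle and 1752 to 2995 in semaglutide muscle (-1.53 ± 0.18, adjusted p = 0.000265). Bdh1, which oxidises beta-hydroxybutyrate, was at 506 to 1396 and 178 to 767, with mouse 14 inside the vehicle range (-1.50 ± 0.38). The other 7 members, including the monocarboxylate transporter Slc16a1 (0.02), were not called. Without mouse 13, 4 members were lower.

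In glycolysis, 5 of 17 members were lower and 1 was higher (29.4% and 5.88%, beside 13.2% and 11.9% over all genes). The median was -0.43, the counts were 4 and 2 with equal totals, and mouse 13 stayed near vehicle. Pkm, pyruvate kinase, was at 52719 to 58543 in vehicle, 55156 in mouse 13 and 18996 to 30678 in mice 14 to 17 (-0.94 ± 0.22, and -1.17 without mouse 13). The list level was 0.07 in mouse 13 and -0.70 to -0.38 in the others, and without mouse 13 the number of lower members was 11. Ldhb, the lactate dehydrogenase subunit of oxidative tissue, fell from 3085 ± 1028 to 1438 ± 411 (-1.07), and Pfkm, muscle phosphofructokinase, from 66692 ± 5088 to 47570 ± 9376 (-0.51). Hk2, the insulin-regulated hexokinase, was at -0.48 (adjusted p = 0.059).

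Of genes of glucose uptake, glycogen and pyruvate entry, 4 of 25 were higher and 10 lower. The shares of 16% and 40% stand beside 11.9% and 13.2% over all genes. The lower members included Mpc2 of the mitochondrial pyruvate carrier (-0.65) and Dlat (-0.73) and Pdhx (-0.64) of the pyruvate dehydrogenase complex, and the kinases that restrain this complex include Pdk4, which was not called (above). Tbc1d4 and Tbc1d1, Rab regulators through which insulin and contraction release glucose transporters, rose by 0.92 and 0.97 on the log2 scale, and Tbc1d4 was at 989.7 to 1254 in vehicle and 1865 to 2689 in semaglutide muscle. The transporter Slc2a4 itself was at 8997 ± 182 and 8189 ± 2464 (-0.19) and was not called. Of lipogenesis and lipid storage genes, 2 of 26 were higher and 1 was lower, which is below the share over all genes in each direction. Their median of -0.08 turned positive with equal totals (0.10), where 4 were higher and 0 lower. Acaca, the acetyl-CoA carboxylase of fat synthesis, rose from 247 ± 40.7 to 423 ± 44.8 (0.79). Without mouse 13, 4 members were higher, and without mouse 16, 3 were lower. The level of this list was highest in mouse 16 (0.41, against -0.23 to -0.06 in the other treated mice), in which the adipocyte transcripts Adipoq and Cfd were also highest, at 1452 and 4949 beside 16.9 to 147 and 104 to 750 in the other treated mice.

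**Figure D3:**
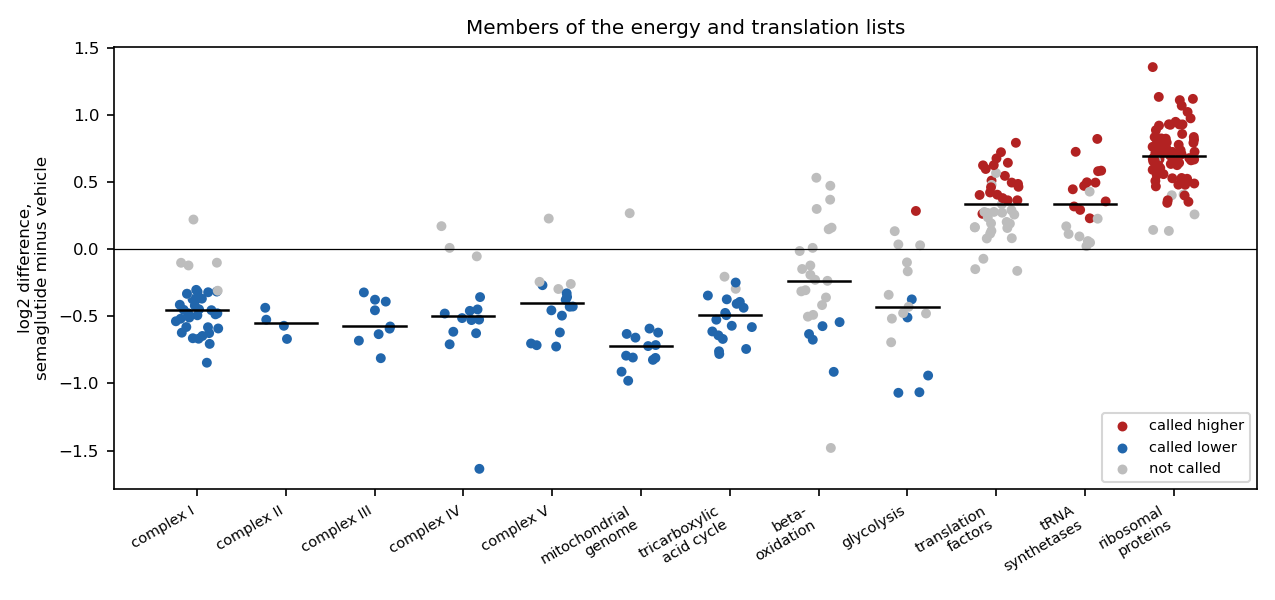
Log2 difference (semaglutide minus vehicle) of each tested member of 12 groups of energy and translation genes, coloured by whether limma called it higher (red), lower (blue) or neither (grey), with the median as a bar. The medians of the respiratory complexes lie between -0.58 and -0.40, Cox7a1 has the lowest value of their subunits at -1.64, and the translation groups lie above 0 with ribosomal proteins at a median of 0.70.

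Genes of the machinery of protein synthesis were higher. Of 81 cytosolic ribosomal protein genes, 75 were higher and 0 lower (median 0.70). Rps20, a small-subunit protein, was at 1247 to 1637 in vehicle and 2738 to 3427 in semaglutide muscle (1.12 ± 0.09), and Rps28 at 116 to 138 and 236 to 278 (1.02 ± 0.08). Mouse 13 was within the range of its group in this list, at a level of 0.59 in that mouse and 0.54 to 0.80 in mice 14 to 17. Among translation initiation and elongation factors, 20 of 43 were higher and 0 lower (median 0.34), or 38 higher with equal totals. Eef1b2, an exchange factor for elongation factor 1A, rose from 1667 ± 113 to 2757 ± 281 (0.72) and Eif3f, a subunit of initiation factor 3, from 2619 ± 138 to 4585 ± 760 (0.79). Of ribosome biogenesis genes, 23 of 47 were higher and 0 lower (median 0.40), or 13 without mouse 15 or mouse 17, 15 without vehicle mouse 3 and 38 with equal totals. Myc, the transcription factor that promotes ribosome production, was at 78 to 150.2 in vehicle and 167 to 294 in semaglutide muscle (1.16 ± 0.22), and Nop56, a nucleolar protein, rose by 0.56 on the log2 scale.

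Cytosolic aminoacyl-tRNA synthetases, which charge tRNAs with their amino acids, had 12 of 20 members higher and 0 lower (median 0.34), or 18 higher with equal totals. Vars, for valine, was at 808 to 867 in vehicle, 891 in mouse 13 and 1613 to 1845 in mice 14 to 17 (0.82 ± 0.16). Mars, for methionine, rose by 0.73 and Gars, for glycine, by 0.58, from 1154 ± 39.8 to 1741 ± 239. These genes are known targets of ATF4, the transcription factor of the integrated stress response. Atf4 itself was at 2437 to 2950.4 in vehicle, 2917 in mouse 13 and 3944 to 5013 in mice 14 to 17 (0.56 ± 0.13, adjusted p = 0.00851). Of its list, 5 of 33 members were higher and 1 was lower (15.2% and 3.03%, beside 11.9% and 13.2% over all genes), or 10 and 3 without mouse 13 and 9 and 0 with equal totals. The called members included Stc2, a secreted glycoprotein (34.2 ± 15.1 to 135 ± 21.7, log2 difference 2.07), and the growth arrest gene Gadd45a (1.40). They also included the amino acid transporter chain Slc3a2 (0.49), Atf4 and Ppp1r15a, a phosphatase subunit. The call of Ppp1r15a was lost in 9 of the 10 fits without a mouse. Asns, asparagine synthetase, was at 26 ± 9.15 and 42.5 ± 29.1 and Trib3, a pseudokinase, at 23.9 ± 7.25 and 28.4 ± 15.9, and neither was called, nor were Ddit3 (-0.10) and Phgdh (0.37).

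The letters TGATGNAA, the composite element that ATF4 binds with C/EBP proteins, were in 2.71% of all promoter windows, 2.91% of those of genes called higher and 2.64% of those of genes called lower. Within the 12 synthetase genes that had a window they were in 5 (41.7%), and within the 30 stress response and amino acid synthesis genes in 7 (23.3%). Of the 5 synthetases, Gars, Iars and Tars were called higher and Aars (0.09) and Yars (0.05) were not, though Aars passed with equal totals (0.27). Of the 7 stress response genes (Asns, Trib3, Atf3, Chac1, Nupr1, Pycr1 and Vldlr), 0 were called. The letters were thus present in genes that rose and in genes that were not called. The windows of Gars, of Iars, for isoleucine (1551 ± 108 to 2362 ± 448, log2 difference 0.59), and of Asns are shown because they carry the same letters close to the start site and differ in outcome, with the match in capitals.
Gars (chr6:55037751-55038050, plus strand): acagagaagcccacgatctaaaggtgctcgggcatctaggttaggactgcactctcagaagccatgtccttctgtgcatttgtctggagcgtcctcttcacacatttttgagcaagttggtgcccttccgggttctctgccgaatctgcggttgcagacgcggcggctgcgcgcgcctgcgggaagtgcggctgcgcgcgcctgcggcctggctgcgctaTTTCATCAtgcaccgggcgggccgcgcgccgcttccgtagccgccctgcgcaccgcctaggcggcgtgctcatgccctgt
Iars (chr13:49681880-49682179, plus strand): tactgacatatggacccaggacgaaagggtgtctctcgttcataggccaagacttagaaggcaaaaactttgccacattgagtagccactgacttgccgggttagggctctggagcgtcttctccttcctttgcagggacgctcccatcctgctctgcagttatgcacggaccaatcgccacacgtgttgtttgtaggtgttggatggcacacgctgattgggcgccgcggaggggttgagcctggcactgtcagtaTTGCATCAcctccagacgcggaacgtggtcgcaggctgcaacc
Asns (chr6:7693160-7693459, minus strand): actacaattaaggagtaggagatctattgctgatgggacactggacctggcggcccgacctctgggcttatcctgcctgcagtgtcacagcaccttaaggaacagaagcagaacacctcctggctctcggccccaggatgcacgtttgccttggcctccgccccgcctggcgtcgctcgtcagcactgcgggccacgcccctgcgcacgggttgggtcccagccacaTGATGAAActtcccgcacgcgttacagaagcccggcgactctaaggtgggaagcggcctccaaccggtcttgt

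Of FoxO factors and insulin-IGF signalling genes, 7 of 27 were higher and 3 lower (25.9% and 11.1%, beside 11.9% and 13.2% over all genes). The number higher was 4 without mouse 15 or vehicle mouse 3 or 4, and 12 with equal totals. Akt1 (chromosome 12, 112653821 to 112674884), the kinase below PI3-kinase, was at 855 to 1027 in vehicle, 1751 in mouse 13 and 2748 to 3578 in mice 14 to 17 (1.59 ± 0.16, adjusted p = 0.000128). Pik3r1, the regulatory subunit of PI3-kinase, rose from 688 ± 151 to 2028 ± 623 (1.52) and Igf1r, the receptor, from 281 ± 23.2 to 537 ± 124 (0.90). The ligand Igf1 was at 218 ± 88.8 and 250.4 ± 147 and was not called. Irs2, the receptor substrate, just missed the threshold (0.40, adjusted p = 0.0514) and passed it with equal totals (0.58, adjusted p = 0.0111). Of the FoxO factors, which drive atrophy genes when this pathway is quiet, Foxo1 was at 1175 to 2745 in vehicle and 621 to 1122 in semaglutide muscle (-1.03 ± 0.27) and Foxo6 at 50.6 to 71 and 6.66 to 19.3 (-2.44 ± 0.26). Foxo3 was at 836 ± 82.4 and 993 ± 178 and was not called.

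Among mTORC1 and translation brakes, 4 of 24 were higher and 1 was lower (16.7% and 4.17%, beside 11.9% and 13.2% over all genes; median 0.11), or 7 and 0 with equal totals. Besides Eif4ebp1, Tsc1, a subunit of the complex that holds mTORC1 off, rose by 0.38 on the log2 scale. Castor2 fell by 0.38, a call lost without mouse 14 or 15 or vehicle mouse 1, 2 or 5. Sesn1 (chromosome 10, 41809935 to 41908424), a leucine-sensing repressor of mTORC1, was at 271 to 415 in vehicle, at 277 in mouse 13, 612 in mouse 14 and 1273 to 1694 in mice 15 to 17. It was called (1.30 ± 0.42, adjusted p = 0.0385), but the call held only in the fits without mouse 13 or mouse 14 among the 10 that each left out 1 mouse. The list had 9 higher and 6 lower members without mouse 13, and 2 higher members without any of the mice 15 and 17 and vehicle mice 1 to 5.

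The main ubiquitin ligases of atrophy divided the treated mice in the same way. Fbxo32, atrogin-1, was at 6730 to 7444 in vehicle, 1460.3 in mouse 13, 12699 in mouse 14 and 29676 to 31652 in mice 15 to 17. Trim63, MuRF1, was at 2433 to 4067 in vehicle, 1206 in mouse 13, 4600.2 in mouse 14 and 11735 to 13333 in mice 15 to 17. In both genes mouse 13 was below the vehicle range and the other 4 above it, and neither was called (adjusted p = 0.315 and 0.223, and 0.00027 and 0.0024 without mouse 13). By edgeR's quasi-likelihood test on the recovered reads, both were higher (adjusted p = 0.034 and 0.0383). Of the list of ubiquitin ligases and atrophy genes, 6 of 24 were called higher and 2 lower, or 8 and 0 with equal totals. The shares of 25% and 8.33% stand beside 11.9% and 13.2% over all genes. Apart from the metallothioneins, which bind metal rather than ubiquitin, the higher ones were Fbxo31, a ligase subunit (0.61), Ube4b (0.34), Ube4a (0.77, lost in 6 of the 10 fits without a mouse) and Tnfrsf12a, the TWEAK receptor (1.34, a call lost in 7 of the 10 fits without a mouse, those without mice 14 to 17 or vehicle mice 2 to 4).

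The letters TGTTTAC, the core that FoxO factors bind, were in 3.18% of all promoter windows, 2.91% of those of genes called higher and 2.48% of those of genes called lower. Among the genes named above, windows of Sesn1, Trim63 and Akt1 held them. Sesn1 had 2 windows, and only the 1 shown held the letters, after the start at position 273 of 300. The windows of Sesn1 and Trim63 are shown, with the match in capitals, because these genes shared the order of the treated mice, from mouse 13 within or below the vehicle range to mice 15 to 17 well above it.
Sesn1 (chr10:41810324-41810623, plus strand): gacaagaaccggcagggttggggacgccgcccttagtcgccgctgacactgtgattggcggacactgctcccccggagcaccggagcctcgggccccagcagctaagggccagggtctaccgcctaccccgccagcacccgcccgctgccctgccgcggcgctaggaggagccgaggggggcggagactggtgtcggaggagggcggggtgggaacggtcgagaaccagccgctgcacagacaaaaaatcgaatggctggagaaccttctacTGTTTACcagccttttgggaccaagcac
Trim63 (chr4:134314870-134315169, plus strand): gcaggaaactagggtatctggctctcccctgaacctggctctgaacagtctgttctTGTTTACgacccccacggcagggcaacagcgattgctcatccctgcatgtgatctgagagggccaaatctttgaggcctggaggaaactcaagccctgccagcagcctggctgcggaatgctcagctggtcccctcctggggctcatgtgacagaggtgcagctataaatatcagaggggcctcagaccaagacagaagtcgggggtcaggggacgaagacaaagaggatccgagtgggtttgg

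Of proteasome subunits, 17 of 38 were higher and 1 was lower (median 0.30), or 11 higher without mouse 17 or vehicle mouse 4 and 30 with equal totals. The higher members were in the core and the cap (4 of 7 alpha subunits, 5 of 6 ATPases and 6 of 11 other cap subunits). Psmd8, a cap subunit, was at 3299.8 to 4643 in vehicle, 4916 in mouse 13 and 8250.4 to 9502 in mice 14 to 17 (0.98 ± 0.19). Psme1, a subunit of the interferon-inducible activator, fell from 392 ± 41.7 to 232 ± 40.6 (-0.76). In autophagy and the lysosome, 8 of 40 genes were higher and 4 lower (20% and 10%, beside 11.9% and 13.2% over all genes). The counts were 19 higher without mouse 13, and 16 higher and 2 lower with equal totals. Ctsl, the cathepsin that rises in wasting muscle, was at 989 to 1264 in vehicle, 1231 in mouse 13 and 1750 to 3639 in mice 14 to 17 (1.19 ± 0.27), and Gaa, lysosomal alpha-glucosidase, rose by 0.78 on the log2 scale. Fundc1, a mitophagy receptor, and Atg12 of the conjugation machinery fell by 0.56 and 0.53.

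**Figure D4:**
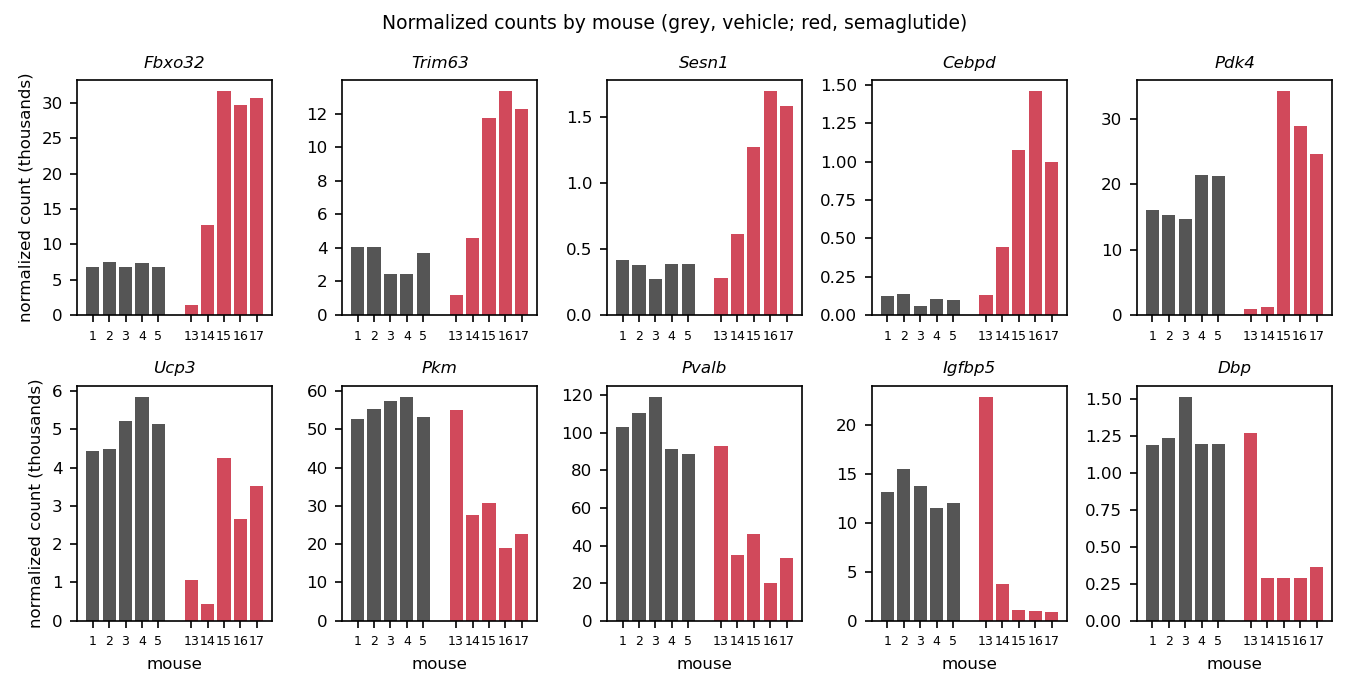
Normalized counts, in units of 1000, of 10 genes in each vehicle mouse (grey bars, 1 to 5) and semaglutide mouse (red bars, 13 to 17), chosen after their values were seen to show how the treated mice differed among themselves. Mouse 13 lies below the vehicle mice for Fbxo32, Trim63, Pdk4 and Ucp3, within their range for Sesn1, Cebpd, Pkm, Pvalb and Dbp and above it for Igfbp5, whereas mice 15 to 17 lie above all vehicle mice for Fbxo32, Trim63, Sesn1, Cebpd and Pdk4 and below them for Ucp3, Pkm, Pvalb, Igfbp5 and Dbp.

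Genes tied to denervation, the neuromuscular junction and growth arrest had 10 of 30 members higher and 4 lower (median 0.35). The shares were 33.3% and 13.3%, beside 11.9% and 13.2% over all genes. Besides Sln, the acetylcholine receptor subunits Chrna1 and Chrnb1 were higher in every treated mouse, mouse 13 included. Chrna1 was at 242 to 293 in vehicle and 384 to 571 in semaglutide muscle (0.82 ± 0.12), and Chrnb1 at 447 to 608 and 919 to 1196 (0.93 ± 0.10). Myod1, the myogenic factor that controls such genes, rose from 179.9 ± 36.1 to 568 ± 219.5 (1.61), and Cdkn1a, the cell cycle inhibitor p21, from 239 ± 70.8 to 812 ± 391 (1.60). For Cdkn1a, mouse 13 was at 220.5, within the vehicle range of 172 to 347, and mice 14 to 17 were at 748 to 1299. Myog was at 0.60 and Musk at 0.34 on the log2 scale, and these were not called, though Musk passed with equal totals (0.52). The number of lower members was 2 with equal totals, 7 without mouse 13 and 2 without mouse 14, 16 or 17 or vehicle mouse 1 or 5.

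Of 16 fast contractile and calcium handling genes, 6 were lower and 1 was higher (median -0.41), or 5 and 3 with equal totals. Pvalb, parvalbumin, the calcium buffer of fast fibres, was at 88963 to 119277 in vehicle, 93017 in mouse 13 and 19840.3 to 46269.8 in mice 14 to 17 (-1.36 ± 0.31). Myl1, the fast essential light chain, fell from 108597 ± 9170.5 to 50468 ± 26156 (-1.23), and Tpm1, tropomyosin 1, from 281989.8 ± 26953 to 141232 ± 60369.6 (-1.09). Casq1, the calcium store of the sarcoplasmic reticulum, was at 34532 to 45035 in vehicle, 45263 in mouse 13 and 6167 to 14010.3 in mice 14 to 17 (-1.57). Mouse 13 was thus near vehicle in these 4 genes. Actn3, the fast Z-disc actinin, moved the other way in all 5 treated mice, from 168886 ± 22574 to 285246 ± 57017 (0.74 ± 0.14). Of 13 slow and oxidative genes, 2 were lower and 0 higher (15.4% lower, beside 13.2% over all genes). Mb (chromosome 15, 77015487 to 77050670), myoglobin, the oxygen store of oxidative fibres, was at 28026 to 50637 in vehicle and 6806 to 13884 in semaglutide muscle (-2.15 ± 0.23), and Myl3, the slow light chain, fell by 1.32. The slow troponins Tnnt1 and Tnnc1 were at -0.64 and -0.52 and were not called. In the sarcomere and Z-disc scaffold 2 of 28 were higher and 2 lower, fewer than over all genes in each direction, and 6 and 6 without mouse 13. Their median turned from -0.05 to 0.12 with equal totals, where 8 were higher and 1 was lower. Stac3, which couples excitation to calcium release, was at 3397 to 4263 in vehicle, 3393 in mouse 13 and 1293 to 1935 in mice 14 to 17 (-0.97 ± 0.20).

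The share of the adult myosin heavy chains, which define fibre types, did not pass the exact permutation test between groups. Myh4, of type IIB fibres, held 87.9% ± 3.49 of the counts of the 4 chains in vehicle and 83.5% ± 9.3 in semaglutide muscle (difference -4.38 percentage points, adjusted p = 0.714). Myh1, of type IIX fibres, held 4.77% to 6.96% in vehicle and 2.72%, 15.0%, 7.16%, 20.5% and 10.4% in mice 13 to 17. Mice 14 to 17 were thus above and mouse 13 below every vehicle mouse (difference 5.17 points, two-sided exact permutation p = 0.143, adjusted p = 0.571). Without mouse 13 the difference was 7.28 points (adjusted p = 0.0317). Myh2 (5.31% ± 2.11 and 4.53% ± 2.64) and Myh7 (0.82% ± 0.43 and 0.807% ± 0.391), of types IIA and I, overlapped between the groups. By the fit across all genes, Myh4 counts were lower (-0.60 ± 0.19, adjusted p = 0.0371). Among the 10 fits without 1 mouse, that call held only without mouse 13 or vehicle mouse 5. It was also lost by limma with equal totals (adjusted p = 0.0592) and by edgeR (adjusted p = 0.0571), but not by DESeq2 (adjusted p = 0.0141).

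**Figure D5:**
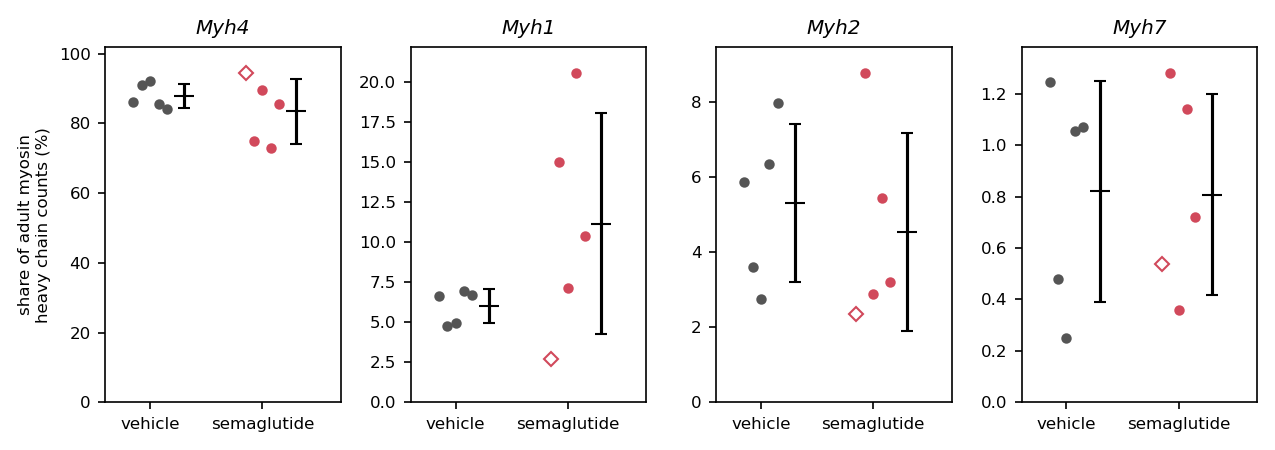
Share (%) of Myh4, Myh1, Myh2 and Myh7 among the summed normalized counts of these 4 adult myosin heavy chain genes in each mouse, by group, with the group mean and SD at the right of the points and mouse 13 as an open diamond. The Myh1 share lies above the vehicle range in 4 treated mice and below it in mouse 13.

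Collagen genes had the lowest median of the 32 lists. Of 32 collagen genes, 23 were lower and 0 higher (median -1.23). Col3a1 (chromosome 1, 45311538 to 45349706), of fine fibrils, was at 883, 1838, 1706, 1831 and 1646 in the vehicle mice and 413, 141, 140.0, 207 and 90.3 in the treated mice (-3.14 ± 0.37). Col1a1 was at 611 to 1736 and 89.5 to 444 (-3.02 ± 0.43). Vehicle mouse 1 was the lowest of its group for both, and mouse 13 the highest of the treated mice, without overlap. Beyond the fibrillar collagens (9 of 10 lower, median -1.60), all 5 tested chains of basement membrane collagen IV and all 4 of collagen VI were lower (median -1.18 and -1.73). Col4a1 had little spread, at 2162 to 2376 in vehicle and 734 to 1149.8 in semaglutide muscle (-1.33 ± 0.10). The median of the collagen list was -1.35 without vehicle mouse 1 and -1.38 without mouse 13.

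In matrix proteins and collagen processing, 23 of 43 members were lower and 1 higher (median -0.64). Fbn1, fibrillin-1 of microfibrils, fell from 689 ± 201 to 202 ± 11.3 (-1.71), Loxl2, a collagen cross-linking enzyme, from 139.6 ± 24.9 to 40.5 ± 12.5 (-1.79), and Sparc, a matrix organiser, from 2929 ± 405 to 1587 ± 68.1 (-0.87). P4hb, a subunit of prolyl hydroxylase that is also a chaperone of the endoplasmic reticulum, rose from 2908 ± 208 to 5565 ± 1391 (0.90). Kera, keratocan of tendon, was at 24 to 174 in vehicle and at 8.7, 3.38, 0, 0 and 1.49 in mice 13 to 17. Some markers of other cells were also lower, but the lists overlap. The tendon markers Fmod and Kera and the progenitor marker Dcn are also members of the matrix list. Of 6 tendon markers 4 were lower, while Scx (0.29) and Mkx (-0.50) were not called. The summed normalized counts of the 6 were 1277 to 6840 in vehicle and 747 to 2721 in semaglutide muscle. Of 6 markers of fibro-adipogenic progenitors 4 were also lower (Pdgfra, Dpt, Cd34 and Pi16, summed range of the list 5193 to 10495 and 5940 to 6805), and of 5 pericyte and smooth muscle markers 3 were (6958 to 9272 and 4281 to 6257). Without 1 mouse the call of Pdgfra was lost in 8 and that of Cd34 in 6 of the 10 fits, and both were lost with equal totals (adjusted p = 0.126 and 0.0838). The tendon marker Fmod lost its call in 6 of the 10 fits, and the pericyte and smooth muscle markers Acta2 and Myh11 lost theirs in 3 and 7 of them and both with equal totals. No marker of these 3 lists was at 0 in all mice, and the part of such cells in the collagen result was not tested. Of 8 endothelial markers 0 were called by limma, edgeR or DESeq2 (1 in each direction at an unadjusted p under 0.05), with summed counts of 5099.6 to 6354 and 5129.5 to 6098.

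By limma, 0 of 8 adipocyte, 0 of 8 macrophage, 0 of 3 satellite cell and 0 of 5 Schwann cell markers tested were called, nor were the 5 erythroid genes, whose summed counts were 1356 to 2291 in vehicle and 50.5 to 3148 in semaglutide muscle. Markers of T and B lymphocytes and neutrophils were all below the minimum for testing, and Ly6g was at 0 in all 10 mice. At an unadjusted p under 0.05 all 5 erythroid genes, 1 adipocyte and 1 satellite cell marker were lower, and without mouse 13 all 5 erythroid genes were called lower, with log2 differences of -3.70 to -2.92 (adjusted p = 0.00392 to 0.014). By all 10 mice, edgeR called 0 of these markers, and DESeq2 called 1, an adipocyte marker, higher. The part of blood or adipose tissue in other results was not tested.

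Of the factors that muscle secretes, 8 of 21 tested were lower and 0 higher (38.1% lower, beside 13.2% over all genes). Besides Ostn, Fndc5, the precursor of irisin, was at 877 to 1586 in vehicle and 416 to 556 in semaglutide muscle (-1.42 ± 0.18), and Fstl1 fell by 0.94 on the log2 scale. Mstn, myostatin, the main restraint on muscle growth, was at 1192 ± 287 and 1335 ± 241 and was not called (0.18). The median of the list was 0.002. The count of lower members was 5 with equal totals, 5 by edgeR and 4 to 6 in the 10 fits without 1 mouse, so none of these reached 8.

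Of branched-chain amino acid breakdown genes, 9 of 21 were lower and 1 higher (42.9% and 4.76%, beside 13.2% and 11.9% over all genes). The median was -0.21. The number lower was 5 without mouse 16 or vehicle mouse 2, and 3 with equal totals. Pccb, a subunit of propionyl-CoA carboxylase, fell from 1432 ± 93.4 to 1024 ± 81.7 (-0.49), and Acad8, of valine breakdown, by 0.51 on the log2 scale. Of amino acid transport and nitrogen export genes, 5 of 33 were higher and 6 lower, which is 15.2% and 18.2% beside 11.9% and 13.2% over all genes (9 and 10 without mouse 13, and 3 higher without mouse 17 or vehicle mouse 1 or 5). Polyamine genes within it moved both ways. Spermidine synthase Srm rose from 92.8 ± 3.98 to 219 ± 52.8 (1.19 ± 0.17), while Amd1, which supplies its aminopropyl donor, spermine synthase Sms (-0.70) and spermine oxidase Smox (-1.81) fell.

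Of antioxidant and glutathione enzymes, 9 of 32 were higher and 4 lower (28.1% and 12.5%, beside 11.9% and 13.2% over all genes). The number higher was 14 without mouse 13, 15 with equal totals, and 5 without mouse 14 or 15 or vehicle mouse 1 or 5. Gclc, the catalytic subunit of glutathione synthesis, rose from 227 ± 28.4 to 361 ± 48.1 (0.66), and Keap1, the sensor that holds Nrf2 in check, from 1417 ± 61.1 to 2119 ± 169 (0.58). Prdx2, a peroxiredoxin, fell by 0.48. Of heat shock proteins and chaperones, 9 of 40 were higher and 1 lower (22.5% and 2.5%, beside 11.9% and 13.2% over all genes). The median was 0.05, and the number higher was 5 without mouse 15 or 17. The secretory chaperone Hsp90b1 rose by 0.50 and the heat shock factor Hsf1 by 0.47. The number of lower members was 3 without mouse 13 and 4 without mouse 14.

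In the list of glucocorticoid-responsive genes and clock, 7 of 30 were higher and 5 lower, or 11 and 5 with equal totals. The shares of 23.3% and 16.7% stand beside 11.9% and 13.2% over all genes. Cebpd, an early target of glucocorticoids, was at 56.9 to 137 in vehicle, 132 in mouse 13, 443 in mouse 14 and 998 to 1459 in mice 15 to 17 (2.62 ± 0.55, adjusted p = 0.00568). Fkbp5 (0.60, and 0.78 and called with equal totals), Klf15 (0.37) and Tsc22d3 (-0.28), further targets of the receptor, were not called, and the receptor gene Nr3c1 fell from 2236 ± 368 to 1343 ± 265 (-0.74). Among clock genes, Nr1d1, a nuclear receptor that represses transcription, fell from 3262 ± 705 to 1731 ± 711 (-0.97). Ciart, a repressor of the clock, fell by 1.35. The labels give no time of day for tissue collection, so a difference in it cannot be told apart from treatment here. The list had 12 higher and 8 lower members without mouse 13, and 4 higher without mouse 15 or 17 or vehicle mouse 3, 4 or 5.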

How the data were processed

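Gastrocnemius RNA was isolated with TRIzol, made into stranded mRNA libraries and sequenced in pairs of 59 bases, and the authors aligned the reads with DRAGEN to mm10. The counting program, annotation and gene filter are not given in the sources used here. The deposited values are normalized counts, a signal per gene, and the submitters' processing notes name DESeq2. Every value, divided by 1 factor per library, came out as a whole number of reads (100% of values within 0.05 of a whole), so reads per library could be recovered (15319471 to 23498162 in the 10 mice). Intervals and floors cover counting error only.

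Groups came from the treatment labels. Genes with a mean of at least 10 over the 13 mice were tested with limma 3.58.1 (R 4.3.3) on log2(normalized count + 1), with all 13 mice in the model. The ketone ester group thus enters the minimum mean and the estimate of spread, but not the difference. Fold changes on this scale understate the change of low genes. Adjusted p-values are Benjamini-Hochberg values over all 12303 genes. The shares of the adult myosin heavy chains were compared by two-sided exact permutation tests over every split of the mice (Python 3.11.15). As an alternative, edgeR 4.0.16 quasi-likelihood tests on the recovered reads called 1769 genes higher and 1542 lower. DESeq2 1.42.0, other scalings, pseudocounts, filters and the removal of each mouse were also tried. The scripts were tested on simulated data.

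The members, gene lists and tests were chosen with earlier results of these data known. Named genes were the 12 largest called differences in each direction with a mean of at least 100 and no overlap, a list of key genes, and up to 4 called members of each list with the smallest adjusted p; members that were not called were named only beside these. Acaa2, Ppp1r15a, Iars, Tars, Atp5g3, Sdhd, Tbc1d1, Mfn1, Mfn2, Opa1, Ube4a, Casq1, Igfbp5, Dbp, Sms, Smox, P4hb and Ndufb4 were named after their values were seen. Gene positions are from GENCODE on GRCm38 and promoter windows from RefSeq on GRCm38.p6. Not every gene that the rule selects is described, and 1 of them is not reported here. Genes named beside a cell type are its markers.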

Additional observations from a re-analysis of the deposited data

Results flagged for a closer look

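In 418 groups of 5 mice (the vehicle and the semaglutide values of the named genes and the list levels), 37 had 1 mouse far from the other 4 by Dixon's ratio, the gap to the nearest mouse over the range, with a critical value of 0.71. Chance gives about 5% of groups. Mouse 13 accounted for 20 of them, mouse 14 for 5, mouse 16 for 3, and vehicle mice 1, 3 and 4 for 6, 2 and 1. The causes were not tested.

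Mouse 13 was the highest semaglutide mouse, on the side of vehicle, for Nrep (ratio 0.97), Dupd1 (0.875), Col1a2 (0.843), Kcng4 (0.84), Nmrk2 (0.84), Ostn (0.82), Col15a1 (0.792), Amd1 (0.79), Gdap1 (0.785), Amd2 (0.784) and Nr1d1 (0.721). It was the lowest for Mars (0.79), Vars (0.757), Klf15 (0.753), Gaa (0.738), Psmd8 (0.727) and Srm (0.712). It was also lowest for the levels of antioxidant and glutathione enzymes (0.8), glucocorticoid-responsive genes and clock (0.766) and autophagy and lysosome (0.725).

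Mouse 14 was the highest semaglutide mouse for Ldhb (0.836), Esrrg (0.773), Myh2 (0.745), Mb (0.737) and Bdh1 (0.722). Its Myh2 was at 66430 normalized counts beside 24901 to 35496 in the other 4. Mouse 16 was the highest for Phgdh (0.763) and for the level of lipogenesis and lipid storage (0.734), and the lowest for Fundc1 (0.776).

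Vehicle mouse 1 was the lowest of its group for Col1a1 (0.927), Col3a1 (0.799), Col1a2 (0.764) and the level of collagens (0.757), and the highest for Idh3a (0.868) and the level of mitochondrial dynamics, import and calcium uptake (0.9). Vehicle mouse 3 was the highest for Nmrk2 (0.726) and the lowest for Sesn1 (0.733), and vehicle mouse 4 the highest for Pdhx (0.746).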

How the results depend on the processing

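Of 144 named genes that were called, 133 kept the call in each of the 10 fits without 1 mouse, 142 were also called by edgeR and 144 without mouse 13. Of all 3084 called genes, 1857 kept the call in the 10 fits. The number of genes higher was 945 to 2130 without 1 mouse, 3262 with equal totals, 2383 with sample weights and 2431 by edgeR without mouse 13, an alternative chosen after seeing the data. The number lower was 929 with equal totals and 2464 with sample weights. A fit of only the 10 compared mice, without the ketone ester group, tested 12290 genes and called 1185 higher and 1325 lower. Equal totals moved 22 list medians by more than the spread between mice: nuclear respiratory subunits to -0.28, mitochondrial genome to -0.55, tricarboxylic acid cycle to -0.32, glucose and glycogen to -0.13, regulators of oxidative metabolism to -0.17, ubiquitin ligases to 0.33, proteasome to 0.48, autophagy to 0.35, FoxO and insulin-IGF to 0.40, tRNA synthetases to 0.51, mTORC1 brakes to 0.29, translation factors to 0.51, ribosome biogenesis to 0.58, heat shock to 0.22, glucocorticoid and clock to 0.40, denervation to 0.52, sarcomere to 0.12, antioxidant to 0.30, branched-chain breakdown to -0.036, amino acid transport to 0.28, mitochondrial dynamics to -0.10 and ribosomal proteins to 0.87. That scaling adds about the same amount to every gene. Quantile normalization moved the mitochondrial genome to -0.43, glucose and glycogen to -0.17 and fast contractile genes to -0.17. A minimum mean of 50 moved secreted factors to -0.70, sample weights moved antioxidants to 0.25, and edgeR without mouse 13 moved amino acid transport to 0.25. Without 1 mouse, the median ranged from -0.38 to -0.11 for glucose and glycogen, -0.47 to -0.25 for regulators and -0.031 to 0.21 for amino acid transport, and the Myh1 share difference from 2.83 to 7.28 percentage points. Beyond the scaling and the mouse left out, the causes were not tested. With 5 mice a group, exact tests cannot go below p = 0.00794. No paired analysis was possible because the replicate numbers only name mice within a group, and no animal is in both groups.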
